A study of Mus musculus with 2 samples.

Results

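The genes described here encode the proteins of the mitochondrial respiratory chain and the ATP synthase, complexes I to V of oxidative phosphorylation. They were chosen by symbol (Nduf, Uqcr, Cox4i, Cox5, Cox6, Cox7, Cox8 and Atp5 genes, the Sdh genes of complex II, and Cyc1). The rule uses no values, but it was set with earlier results of these data known. It gave 91 of the 18193 genes measured, read by 180 of the 34945 probe sets with 1 gene symbol. Of the 91, 83 encode parts of the complexes or their isoforms, and 8 are Ndufaf genes, which encode assembly factors of complex I and were kept apart.

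The cells were mouse regulatory T cells (Tregs), T cells that restrain immune responses, which had been induced in vivo through dendritic cells, with immunization named in the title of the series. They were sorted on 2 proteins, CD25 and Foxp3. Total RNA from Hopx-sufficient cells went onto 1 array and total RNA from Hopx-/- cells onto another. Hopx is a small nuclear cofactor made of a homeodomain that does not contact DNA. How the Hopx-/- allele was made, the age of the mice and how many animals or sorts were pooled are not given in the sources used here.

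The respiratory chain sits in the inner mitochondrial membrane. Complex I takes electrons from NADH and complex II from succinate, coenzyme Q carries them to complex III, and cytochrome c carries them on to complex IV, where oxygen is reduced. Complexes I, III and IV pump protons, and complex V lets the protons flow back to make ATP. Complex II is encoded in the nucleus alone, and the others combine nuclear subunits with subunits encoded in mitochondrial DNA. Tregs are known to lean on mitochondrial respiration more than effector T cells do.

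The structural genes were slightly lower on the Hopx-deficient array as a group, relative to the bulk of all genes. Unless a fold is named, each value is the log2 difference of the Hopx-deficient from the Hopx-sufficient array, averaged over the probe sets of a gene, and a negative value means lower without Hopx. The median over the 83 structural genes was -0.11, against 0.0082 over all genes. Of the 83 genes 61 were below 0, which is 73.5%, against a background of 47.4% of all genes, and 22 were above 0, against 51.4%. The differences were small. A difference of 0.32 was set as a limit of size, which tests nothing. By this limit 5 genes (6.02%) were lower, no more than the background of 6.61%, and none was higher, against 4.36%. At a limit of 1.1-fold, 31 genes (37.3%) were lower against a background of 21.8%, and 6 (7.23%) were higher against 22.5%. The lowest was Ndufb1 at -0.41 and the highest Cox7a2l at 0.32. With 1 array per genotype no value has a replicate error, no test was possible, and each statement describes these arrays.

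**Figure D1:**
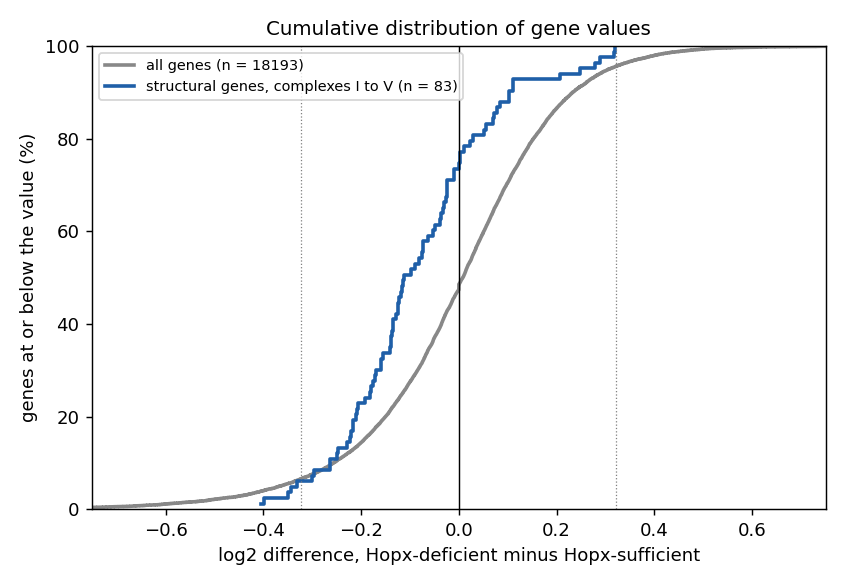
Cumulative share of genes (vertical axis, percent) at or below each log2 difference, Hopx-deficient minus Hopx-sufficient (horizontal axis), for the 83 structural genes of complexes I to V (blue) and all 18193 genes (grey); dotted lines mark 0.32 on either side of 0. The blue curve lies left of the grey one near 0, where 73.5% of structural genes and 47.4% of all genes are below 0, and the curves meet near the lower dotted line; with centring on spike-in controls both curves move right by 0.12.

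Spike-in controls bear on where 0 lies. Hybridization spike-ins are bacterial and phage RNAs added to each sample, and their 18 probe sets lay between -0.21 and 0.015 (median -0.12). Of the structural genes, 16 lay below the lowest spike-in, 49 within the spike-in range and 18 above it. Centring on the spike-ins adds 0.12 to every gene, which puts the structural median at 0.0049 and the median of all genes at 0.12, so the distance between them stays as it was. Under that centring 39 structural genes are below 0. Directions given below are therefore relative to the bulk of all genes.

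Probe sets that read the same gene gave the only repeat measurement in the data. Of the 49 structural genes with 2 or more probe sets, 27 had all of them below 0 and 6 had all of them above 0. The shares, 55.1% and 12.2%, stand against 22.3% and 24.1% of all genes with 2 or more probe sets. The median standard deviation between probe sets of a gene was 0.069 for structural genes and 0.13 for all genes. Some members disagreed strongly. Uqcrq, a small subunit of complex III, had probe sets at -0.33, -0.18, -0.053 and 0.58, and its mean of 0.0033 describes none of them. Ndufa12, an accessory subunit of complex I, had 3 probe sets between -0.40 and -0.33 and another at 0.37. Ndufs4, another accessory subunit of complex I, ranged from -0.58 to 0.020.

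**Figure D2:**
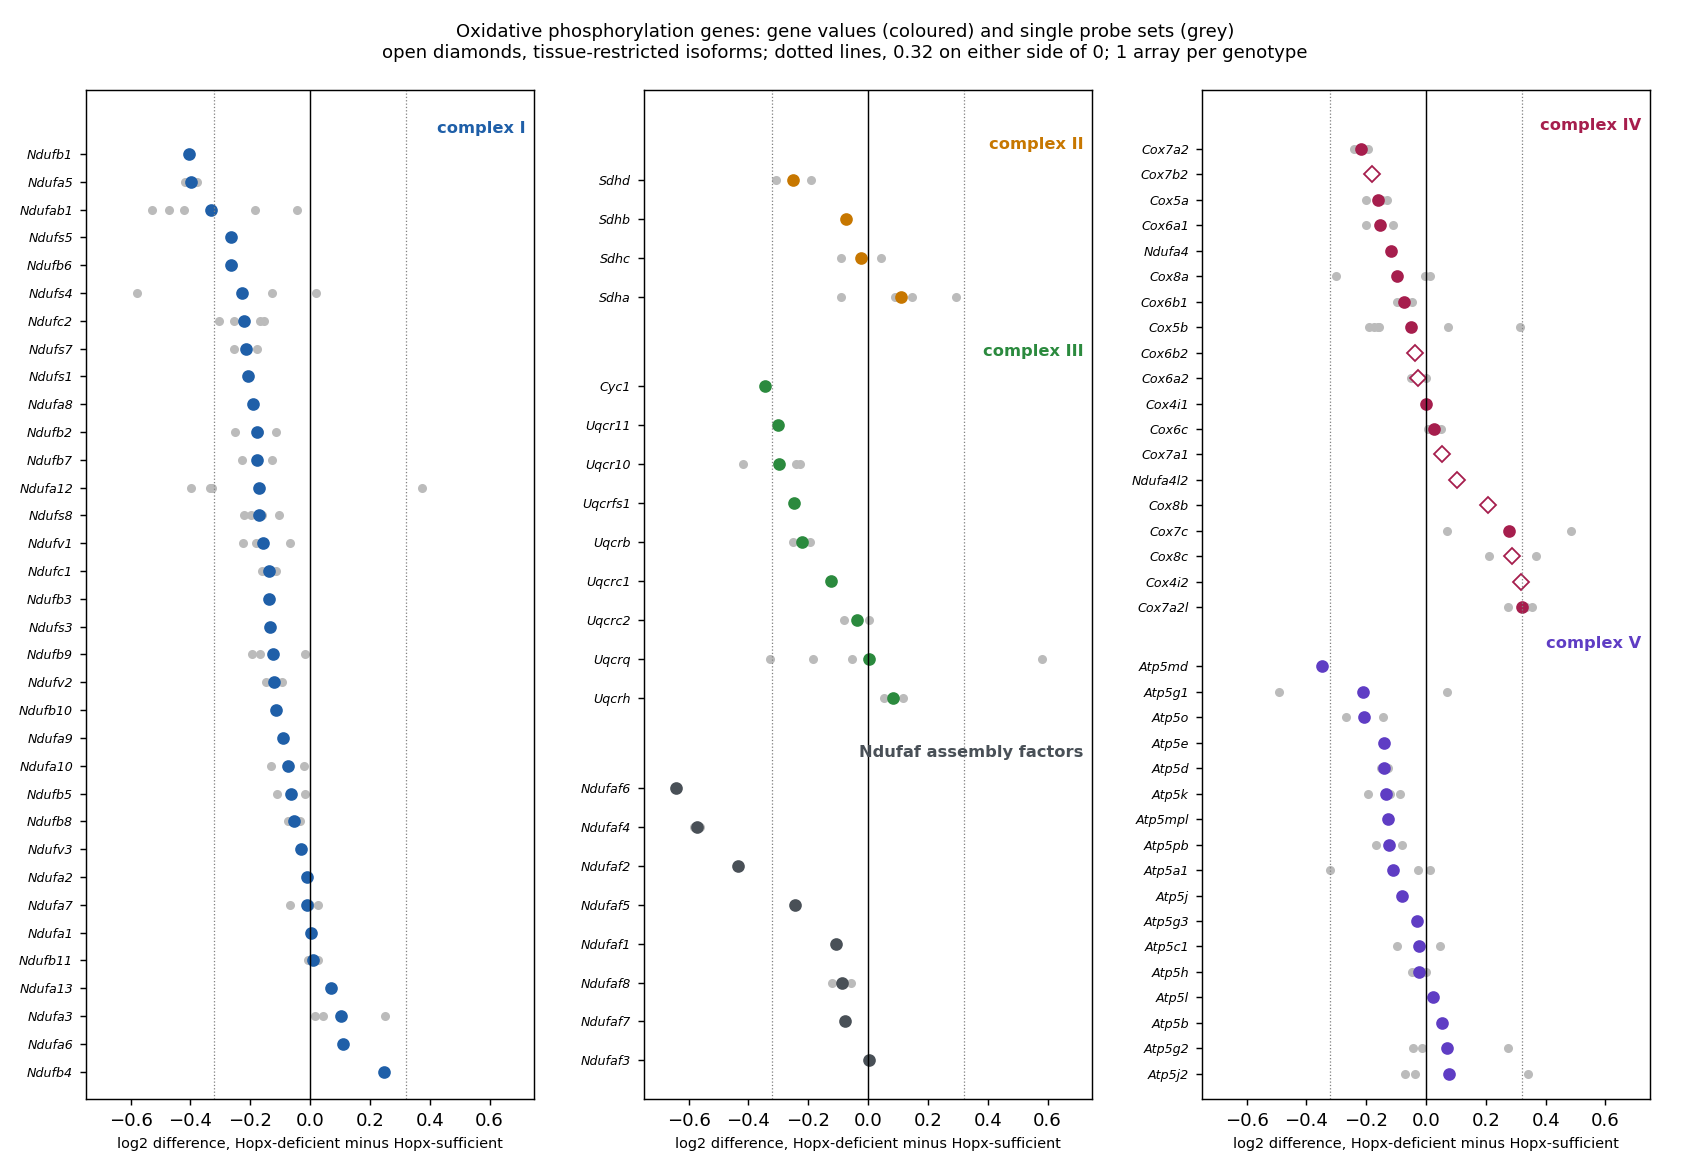
Log2 difference (horizontal axis, Hopx-deficient minus Hopx-sufficient) of each of the 91 genes, by complex; coloured symbols are gene values, grey points single probe sets, open diamonds isoforms known from particular tissues, and dotted lines 0.32 on either side of 0. Most genes of complexes I, III and V lie left of 0, while complex IV spreads from -0.22 to 0.32; centring on spike-in controls would move every point right by 0.12, which takes the medians of complexes II, IV and V past 0.

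Promoters of nuclear respiratory genes are known to carry sites for the factors NRF1, GABP (an ETS family protein) and YY1, so their sequences were searched. RefSeq promoters (GRCm38.p6, 250 bases before to 50 after the start) were found for 74 of the 91 genes, 79 promoters in all. An NRF1 motif, read as GCGC, any base, then TGCGC, occurred on either strand in 18 of the 79 (22.8%), against 4.60% of all 32851 promoters and 7.43% of the promoters of measured genes. The ETS letters CCGGAAGT, also on either strand, occurred in 5 (6.33%), against 3.89% of all promoters and 5.83% of those of measured genes. The YY1 letters AAGATGGC, searched likewise, occurred in 10 (12.7%), against 2.75% and 3.38%. Of the 74 genes 31 held at least 1 of the 3 motifs, and 1 of them, Atp5h, held more than 1. Counted by promoter, 40.5% of the 79 held any of the 3 motifs, against 10.4% of all promoters. Promoters of measured genes held each motif more often than all promoters did, and their combined share was not counted. Genes with and without the NRF1 letters had similar values: the 17 genes with the NRF1 letters had a median of -0.13 and 13 below 0, and the 57 without had a median of -0.12 and 44 below 0. A match in these letters is a description and not a shown binding site.

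The sequences below are the 250 bases before the start, 5′ to 3′ on the strand of the gene (GRCm38.p6, RefSeq), with the motif in capitals. The promoters of Ndufaf4, Ndufa5 and Ndufs5 are shown because these are the lowest genes that hold the NRF1 letters. The motif began 113 bases before the start in Ndufaf4, 26 bases before it in Ndufa5 (the start furthest upstream) and 98 bases before it in Ndufs5. Uqcr11 is shown as the lowest gene with the ETS letters, 66 bases before its start. Cox7a2l is shown as the highest structural gene, and its 250 bases hold none of the 3 motifs. Of the 17 genes with the NRF1 letters 13 were below 0. The others, not shown, were Ndufb4 (0.25), Ndufa6 (0.11), Sdha (0.11) and Atp5g2 (0.072).
Ndufaf4 (chr4:24897833-24898082, plus strand): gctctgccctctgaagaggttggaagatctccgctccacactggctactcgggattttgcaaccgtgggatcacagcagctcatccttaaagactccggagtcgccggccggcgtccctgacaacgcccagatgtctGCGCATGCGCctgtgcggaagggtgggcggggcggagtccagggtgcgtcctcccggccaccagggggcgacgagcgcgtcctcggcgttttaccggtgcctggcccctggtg
Ndufa5 (chr6:24527691-24527940, minus strand): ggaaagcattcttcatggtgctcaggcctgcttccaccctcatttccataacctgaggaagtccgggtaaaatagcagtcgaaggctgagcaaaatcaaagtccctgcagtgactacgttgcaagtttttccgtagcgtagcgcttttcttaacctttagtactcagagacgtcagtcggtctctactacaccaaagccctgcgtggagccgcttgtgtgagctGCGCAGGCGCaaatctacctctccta
Ndufs5 (chr4:123718187-123718436, minus strand): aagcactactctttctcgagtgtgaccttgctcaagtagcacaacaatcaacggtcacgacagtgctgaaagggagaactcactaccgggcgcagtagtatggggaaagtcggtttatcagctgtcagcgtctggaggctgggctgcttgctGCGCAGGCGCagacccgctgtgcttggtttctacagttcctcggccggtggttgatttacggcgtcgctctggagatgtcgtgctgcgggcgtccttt
Uqcr11 (chr10:80406822-80407071, minus strand): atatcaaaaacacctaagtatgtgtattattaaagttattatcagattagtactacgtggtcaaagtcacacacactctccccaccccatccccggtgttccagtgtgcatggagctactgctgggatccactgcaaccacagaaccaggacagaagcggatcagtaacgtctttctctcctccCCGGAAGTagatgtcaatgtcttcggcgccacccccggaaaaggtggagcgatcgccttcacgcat
Cox7a2l (chr17:83514334-83514583, minus strand): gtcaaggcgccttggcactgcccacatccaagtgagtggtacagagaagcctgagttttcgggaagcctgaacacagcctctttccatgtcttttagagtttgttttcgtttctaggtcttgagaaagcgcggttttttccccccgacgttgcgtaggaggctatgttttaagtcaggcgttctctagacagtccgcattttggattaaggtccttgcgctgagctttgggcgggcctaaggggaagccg

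Complex I, the NADH dehydrogenase, had 34 measured structural genes, of which 28 were below 0, with a median of -0.14 (-0.020 with centring on the spike-ins). Its core subunits bind the flavin and the iron-sulfur clusters that pass electrons from NADH to coenzyme Q. All 6 nuclear core genes measured were below 0, in a narrow range. Ndufv1, whose product binds NADH and the flavin, was at -0.16, Ndufv2 at -0.12 and Ndufs1, which holds several iron-sulfur clusters, at -0.21. Of the core genes in the arm that reduces coenzyme Q, Ndufs7 was at -0.22, Ndufs8 at -0.17 and Ndufs3 at -0.14. The 6 probe sets of Ndufs8 all lay between -0.22 and -0.10.

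Accessory subunits surround this core and were more spread. Of 28 measured, 22 were below 0, with a median of -0.12, and 3 were lower by the limit of size, against the background of 6.61%. Ndufb1, in the membrane arm, stood at 0.20 on the Hopx-sufficient array and -0.20 on the Hopx-deficient array, values the authors centred on the mean of the arrays, a difference of -0.41 (1.32-fold lower, 1 probe set). Ndufa5, next to the site of coenzyme Q reduction, stood at 0.20 and -0.20 in the same order, a difference of -0.40, and its 2 probe sets gave -0.42 and -0.38. Ndufab1 encodes the mitochondrial acyl carrier protein, which serves fatty acid synthesis as well as complex I. It stood at 0.17 and -0.17, a difference of -0.33, with 5 probe sets from -0.53 to -0.043. In these 3 genes the Hopx-deficient array was the lower in each probe set. Ndufs5 (-0.26) followed.

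The highest genes of complex I were Ndufb4 at 0.25 and Ndufa6 at 0.11, each read by 1 probe set. Other probe sets of Ndufb4 went the other way: 2 of them, which the annotation gives to Ndufb4 and its copies Ndufb4b and Ndufb4c together, were at -0.23 and -0.29. Probe sets assigned to several genes were not counted above.

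Assembly factors of complex I bind the growing complex and leave it once it is complete. Of the 8 Ndufaf genes 7 were below 0, with a median of -0.18 (-0.060 with centring on the spike-ins), and 3 (37.5%) were lower by 0.32 or more, against the background of 6.61%. Ndufaf6, needed for an early step of assembly, stood at 0.32 on the Hopx-sufficient array and -0.32 on the Hopx-deficient array, a difference of -0.64 (1.56-fold lower, 1 probe set). Ndufaf4 stood at 0.29 and -0.29, a difference of -0.57 (1.49-fold lower), and its probe sets gave -0.58 and -0.56. Ndufaf2, a factor that joins late in assembly, was at -0.43. The Hopx-deficient array was the lower for all 3. The other Ndufaf genes ran from -0.24 (Ndufaf5) to 0.0016 (Ndufaf3).

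Complex II, the succinate dehydrogenase, also works in the TCA cycle. Its 4 genes had a median of -0.049, which turns to 0.067 with centring on the spike-ins. Sdhd, a membrane anchor, was at -0.25 (probe sets at -0.31 and -0.19), and Sdhc, the other anchor, at -0.024. The iron-sulfur subunit gene Sdhb was at -0.074. Sdha, which binds succinate and the flavin, was at 0.11, with probe sets from -0.092 to 0.29.

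Complex III, the cytochrome bc1 complex, had the lowest median of the 5 complexes at -0.22 over 9 genes (-0.11 with centring on the spike-ins), with 7 below 0. Cyc1, the haem protein that hands electrons to cytochrome c, stood at 0.17 on the Hopx-sufficient array and -0.17 on the Hopx-deficient array, a difference of -0.34 (1.27-fold lower, 1 probe set). Uqcrfs1, the Rieske iron-sulfur protein that takes electrons from coenzyme Q, was at -0.25. Both nuclear genes of its electron path were thus lower on the Hopx-deficient array. Among the small subunits Uqcr11 was at -0.30 and Uqcr10 at -0.30, the latter with 3 probe sets from -0.42 to -0.23, and Uqcrb was at -0.22. The core proteins, which resemble mitochondrial processing peptidases, were nearer to 0, with Uqcrc1 at -0.12 and Uqcrc2 at -0.038. Uqcrh, the hinge protein, was at 0.084.

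Complex IV, cytochrome c oxidase, had a median of -0.026 over 19 genes, 10 below 0 and 9 above, and this median changed sign in 3 other analyses: 0.090 with centring on the spike-ins, 0.00096 with the most different probe set of each gene, and 0.0056 with probe sets of the coarsest value steps. Several of its subunits have isoforms known from particular tissues. Set apart, the 10 ubiquitous subunits measured had a median of -0.085, with 7 below 0. The 8 isoforms or paralogues known from muscle, testis, lung or hypoxic cells had a median of 0.079, with 5 above 0. The deposited values hold no levels, so whether these 8 were detected in Tregs cannot be told.

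Each tissue form is given beside its general form, where that form had a gene value. Cox4i1, the general form of subunit 4, was at 0.00096 and Cox4i2, the lung form, at 0.32. Cox6a1 was at -0.15 and its muscle form Cox6a2 at -0.026, while Cox6b1 was at -0.072 and the testis form Cox6b2 at -0.036. Cox8a was at -0.097, with the muscle form Cox8b at 0.21 and the testis form Cox8c at 0.29. The probe sets of Cox8a disagreed, at -0.30, -0.0037 and 0.015. Cox7a2 was at -0.22, the lowest gene of the complex, and its muscle form Cox7a1 at 0.055. Cox7b2, a testis form of subunit 7b, was at -0.18, and its general form Cox7b had no gene value. Ndufa4, first named as a subunit of complex I and since assigned to complex IV, was at -0.12, and its paralogue Ndufa4l2, a hypoxia-induced gene, at 0.10. Of the general subunits without a paired form, Cox5a was at -0.16. In Cox7c, at 0.28, the 2 probe sets gave 0.070 and 0.49.

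Cox7a2l, a relative of Cox7a1 and Cox7a2, was the highest structural gene. Its product helps complexes III and IV join into supercomplexes. It stood at -0.16 on the Hopx-sufficient array and 0.16 on the Hopx-deficient array, a difference of 0.32, just short of the limit of size before rounding, and its 3 probe sets gave 0.27, 0.33 and 0.35. Here the Hopx-deficient array was the higher in each probe set.

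Complex V, the ATP synthase, had a median of -0.11 over 17 genes, with 13 below 0. The median was 0.0049 with centring on the spike-ins. It was -0.039 without suffixed probe sets, those with names ending in _x_at, _s_at or _a_at. In F1, the catalytic head, 4 of 5 genes were below 0. Atp5e was at -0.14 and Atp5a1, for the alpha subunit, at -0.11, while Atp5b, for the catalytic beta subunit, was at 0.052. The probe sets of Atp5a1 were at -0.32, -0.027 and 0.014. All 4 genes of the peripheral stalk, which holds the head still, were below 0, from -0.21 for Atp5o to -0.024 for Atp5h. In the membrane part, 5 of 8 were below 0. Atp5md, a small subunit that helps ATP synthases pair, stood at 0.17 and -0.17 on the Hopx-sufficient and Hopx-deficient arrays, a difference of -0.35 (1.27-fold lower, 1 probe set). Atp5j2, for subunit f, was the highest gene of the complex at 0.078, but its probe sets disagreed, at -0.071, -0.036 and 0.34.

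The Atp5g genes all encode the same mature c subunit of the proton-driven ring, with different import signals. Atp5g1 was at -0.21, Atp5g2 at 0.072 and Atp5g3 at -0.032. The probe sets of Atp5g1 disagreed, at -0.49 and 0.071, and those of Atp5g2 ran from -0.043 to 0.27, so the order of the c-subunit genes is not settled by these arrays.

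Beyond the complexes, lists of genes that build, feed or regulate the respiratory chain were read in the same way. Across 43 measured assembly factors of all complexes, 32 were below 0, with a median of -0.11, which turns to 0.0076 with centring on the spike-ins. Past the limit of size were 7 (16.3%) on the lower side, against 6.61% of all genes, and 2 on the higher side, against 4.36%. The complex I assembly factors outside the Ndufaf family ran from -0.32 (Foxred1, just inside the limit) to 0.42 (Tmem126b), with Acad9 at 0.091. Sco2, a copper chaperone of complex IV, was the lowest after Ndufaf6 and Ndufaf4, at -0.52. Of 18 genes of electron carriers and coenzyme Q synthesis, 14 (77.8%) were below 0, against 47.4% of all genes, and 5 (27.8%) were lower by 0.32 or more, against 6.61% (median -0.14). Coq7 (-0.65) and Coq4 (-0.64), both needed to make coenzyme Q, and Gpd2 (-0.43), which passes electrons from glycerol phosphate into the chain, differed most. The 4 probe sets of Gpd2 disagreed, running from -0.79 to 0.23. Cycs, encoding cytochrome c, was at -0.41 with 4 probe sets from -0.57 to -0.11.

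The TCA cycle and pyruvate entry list had 13 of 16 genes below 0, against 47.4% of all genes, and a median of -0.14. Dlat, the acetyltransferase of pyruvate dehydrogenase, was at -0.40, Fh1, the fumarase, at -0.24 and Sucla2, of succinyl-CoA synthetase, at -0.20. Of 9 genes of ATP export and coupling, 7 were below 0, against the same 47.4% (median -0.15). Ppif, for the mitochondrial cyclophilin, was at -0.47 and Vdac2, an outer membrane channel, at -0.27, while Ucp3, an uncoupling protein gene known from muscle, was at 0.35 with probe sets at -0.0093 and 0.70.

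Regulators of mitochondrial genes had a median of -0.096 over 19 genes, with 12 (63.2%) below 0, against 47.4% of all genes, and 5 (26.3%) lower by 0.32 or more, against 6.61%; the median turns to 0.020 with centring on the spike-ins. Lrpprc, which stabilises mitochondrial mRNA, was at -0.52, and Pprc1, a coactivator of the PGC-1 family, at -0.44. Gabpb1, a subunit of GABP, was at -0.43 with probe sets at -0.44 and -0.43, while Gabpa, its DNA-binding partner, was at -0.096 with probe sets at -0.26 and 0.064. The Nrf1 gene was at 0.17 (4 probe sets from 0.042 to 0.30).

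Protein import, which brings nuclear-encoded subunits into mitochondria, had a median of -0.32 over 22 genes. The median was -0.21 with centring on the spike-ins and -0.21 without suffixed probe sets. All 22 were below 0 and 11 (50.0%) were lower by 0.32 or more, against the background of 6.61%. Timm8a1, a chaperone of the intermembrane space, was at -0.82 with probe sets at -0.84 and -0.80. Tomm40, the outer membrane pore, was at -0.58 and Timm17a, of the inner membrane translocase, at -0.58. Mitochondrial ribosomal protein genes, whose ribosome makes the mitochondrially encoded subunits, had a median of -0.22 with 69 of 76 below 0. That median was -0.10 with centring on the spike-ins, which leaves 57 below 0, and -0.33 with the most different probe set of each gene. Its most different genes were Mrps28 (-0.75), Mrps18b (-0.60) and Mrpl12 (-0.57). Cytosolic ribosomal protein genes had a median of -0.0049, and -0.12 without suffixed probe sets. Of the 48, 26 (54.2%) were below 0, against the same 47.4%. In that list Rpl14 (-0.43), Rps25 (-0.41) and Rpl12 (-0.37) differed most. Differences between lists were not tested, with 1 array per genotype.

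**Figure D3:**
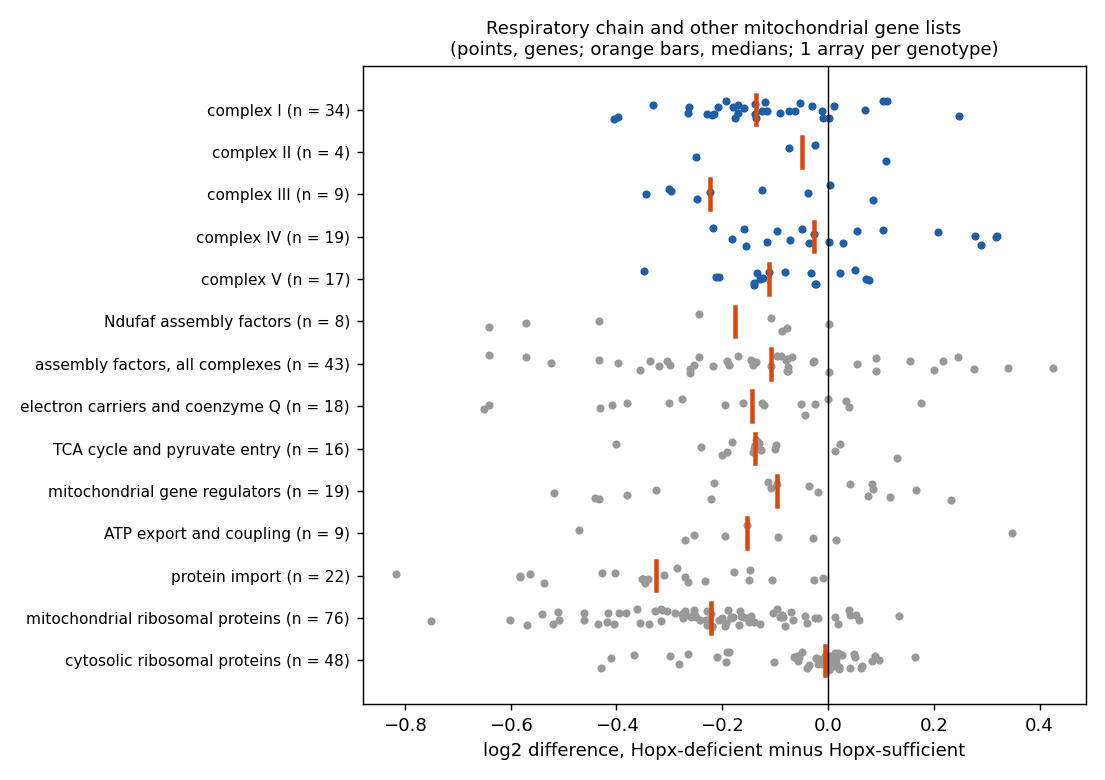
Log2 difference (horizontal axis, Hopx-deficient minus Hopx-sufficient) of each gene (points) in the 5 complexes (blue) and other gene lists (grey), with list medians as orange bars. Medians run from -0.32 for protein import to -0.0049 for cytosolic ribosomal proteins; centring on spike-in controls adds 0.12 to every point and takes the medians of complexes II, IV and V, of all assembly factors, of the regulators and of cytosolic ribosomal proteins above 0.

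Other genes differed between the arrays alongside the respiratory genes. Hopx itself was at -5.15, with probe sets at -5.43 and -4.86. All 17 measured genes of a cell cycle list were below 0, 11 of them (64.7%) by 0.32 or more, against 6.61% of all genes (median -0.51, range -0.96 to -0.059). Of 16 tissue macrophage markers 13 were higher by 0.32 or more, against 4.36% of all genes (median 0.41, range -0.11 to 0.94). All 6 measured B cell markers were below 0, against 47.4% of all genes (median -0.15, range -0.41 to -0.064). Of these B cell markers 2 (33.3%) were lower by 0.32 or more, against 6.61%. Of the 6 measured T cell and Treg markers 4 were above 0, against 51.4% of all genes (median 0.25, range -0.049 to 0.37). Higher by 0.32 or more were 2 of them (33.3%), against 4.36% of all genes. The 6 muscle markers ran from -0.42 to 0.21 and the 3 erythroid markers from -0.029 to 0.078. Which of these markers were absent cannot be said, since the table holds no levels, and their part in the respiratory values was not tested. In sorted bulk RNA, fewer cells of a type and less RNA per cell cannot be told apart.

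The deposited values also carry a trace of signal strength, since single-precision values above a certain size lie on a coarser grid. Of the 160 probe sets of structural genes other than the tissue-restricted isoforms, 143 (89.4%) lay on the coarsest grid, against 59.8% of all probe sets with 1 symbol. Of the 10 probe sets of the tissue-restricted isoforms 7 did, including a Cox6a2 probe set at 0 on both arrays. A value of 0 always lies on the coarsest grid, and weaker values can fall on it as well. The coarsest grid is thus not a set of strong signals alone, and it does not show that these isoforms were detected. Those 143 had a median of -0.13, and the 17 on finer grids -0.015. Over all probe sets with 1 symbol the medians were 0 and 0.020. With gene values taken from the coarsest grid alone, 58 of 80 structural genes (72.5%) were below 0, against 48.1% of all genes, and 6 (7.50%) were lower by 0.32 or more, against 7.98%.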

How the data were processed

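Gene expression was measured on single-colour arrays with 45101 probe sets, 1 array per genotype. Values on a log2-type scale were deposited by the authors after the mean of both arrays had been subtracted from each probe set: in the file the columns mirror each other, with no row sum beyond 1e-06. The deposited table therefore holds differences and no levels. Its log base, the summarisation and the normalization are not given in the sources used here; base 2 was assumed, and with natural logs each difference would be 1.44 times larger. The number of arrays limits the precision.

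Gene symbols came from the 2016 annotation of the array, and 932 with several symbols were left out of gene values. A gene value was the mean of the Hopx-deficient minus Hopx-sufficient difference over its probe sets, with no centring. The members and lists were chosen with earlier results of these data known. Named are Hopx, the 4 lowest and 2 highest genes of each complex, members at least 0.32 apart on the log2 scale, isoforms, core subunits of complex I, the 3 genes with the widest probe sets and the 3 most different genes of each list; others were chosen after their values were seen. Gene averaging was checked on shuffled probe set differences with a constant shift added to the members. The shift comes back by arithmetic, so this shows only that the calculation ran as written. Alternatives were other centrings, probe set summaries and filters, folds and natural logs; complex IV without tissue-restricted isoforms and the coarsest value steps were added after seeing the data. Python 3.11.15, numpy 2.4.6, pandas 2.3.3 and matplotlib 3.10.9 were used.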

Additional observations from a re-analysis of the deposited data

Results flagged for a closer look

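Probe sets outside the gene values held 2 signals beyond 0.32 on the log2 scale. A probe set which the annotation gives to Ndufab1 and its pseudogene Ndufab1-ps together, stood at 0.17 on the Hopx-sufficient array and -0.17 on the Hopx-deficient array, a difference of -0.34, close to the -0.33 of Ndufab1 itself. A probe set annotated as ND5, a subunit of complex I encoded in mitochondrial DNA, stood at -0.18 and 0.18 in the same order, a difference of 0.37. The 13 symbols listed for mitochondrially encoded subunits, written with the prefix mt-, matched no probe set. Without that prefix only ND5 was looked up, so whether the array reads other such subunits under other symbols was not tested.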

How the results depend on the processing

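No paired analysis was possible because there is a single array of each genotype; leaving out an array was impossible for the same reason. Of 216 comparisons of a result with an alternative, 170 kept the sign and lay within 1.5 times. Another 36 moved by more and 10 changed sign. Among the 170 are the medians and counts below 0 with natural logs. Natural logs multiply each difference by 1.44, so these results stay within 1.5 times by construction. Centring on the hybridization spike-ins had the widest effect: it left 0 structural genes lower by 0.32 or more and 39 below 0, and gave medians of 0.0049 for structural genes, -0.020, 0.067, -0.11, 0.090 and 0.0049 for complexes I to V, -0.060 for the Ndufaf genes (4 below 0), 0.0076 for assembly factors (21 below 0), -0.027 for electron carriers, -0.022 for the TCA cycle, 0.020 for regulators (7 below 0), -0.038 for ATP export, -0.21 for import, -0.10 for mitochondrial and 0.11 for cytosolic ribosomal proteins. The constant shift of 0.12 makes these changes. The count of structural genes lower by 0.32 or more was 9 with the most different probe set and 12 with natural logs; with a limit of 1.5-fold it was 0 (228 of all genes) and with 1.1-fold 31. The median of complex IV was -0.0037 with the median over probe sets and 0.00096 with the most different probe set. Without suffixed probe sets it was -0.015, and with Ndufa4 in complex I -0.012. It was -0.072 without tissue-restricted isoforms and 0.0056 with the coarsest value steps. With the most different probe set the medians were -0.083 for complex II, -0.19 for assembly factors, -0.22 for regulators, -0.24 for ATP export and -0.33 for mitochondrial ribosomal proteins. Leaving out suffixed probe sets, those with names ending in _x_at, _s_at or _a_at, kept 67 structural genes. The medians were then -0.074 for complex II, -0.039 for complex V, -0.28 for the Ndufaf genes and -0.040 for regulators. They were -0.059 for ATP export and -0.21 for import. With the coarsest value steps the median of cytosolic ribosomal proteins was 0.0022. Apart from the shift, the cause of these changes was not tested.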
